A study of Mus musculus with 16 samples.

Results

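The 9 genes described here encode antimicrobial peptides and proteins of skin, namely the beta-defensins Defb1, Defb3, Defb4, Defb6 and Defb14, the siderophore-binding lipocalin Lcn2, the protease inhibitor Slpi, the cathelicidin Camp and the iron-binding lactoferrin Ltf. They were chosen by symbol, and 9 of 9 were found among the 50600 gene identifiers of the count table. RNA was measured in epidermal cells of the footpad of 16 female C57/B6J mice, 1 library from each, 4 in each of 4 groups. From 5 wk of age and for 3 wk, the mice received a purified diet poor in ligands of the aryl hydrocarbon receptor, AhR (labelled SYNTH, here the AhR-poor diet), or that diet with 200 ppm of indole-3-carbinol, a source of AhR ligands (labelled I3C). Cells were taken 6 hr after an injection of 50 μl of PBS into the footpad, either alone (labelled PBS, here vehicle) or carrying 50 μg of the plant protease papain, an allergen. The groups are thus the AhR-poor diet with vehicle (T100 to T103) and with papain (T104, T105, T107 and T112), and the I3C diet with vehicle (T108 to T111) and with papain (T106, T113, T114 and T115). The comparisons ask how the allergen alters these transcripts, and how the diet alters their level and their response. Mice on the same diet shared a cage, so diet and cage cannot be told apart.

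Beta-defensins are small cationic peptides held together by disulphide bonds, which epithelial cells secrete and which disrupt microbial membranes. In skin some are made without stimulus and others appear after injury, microbial products or inflammatory cytokines. Lcn2 and Ltf withhold iron from bacteria, Slpi inhibits neutrophil proteases and is itself antimicrobial, and Camp is cut by proteases into an active peptide. Camp and Ltf are stored in the granules of neutrophils, which also hold Lcn2 protein, whereas keratinocytes can make Lcn2, Slpi and the beta-defensins.

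On GRCm38 with GENCODE M21, 4 of the beta-defensins lie within 100.9 kb on the forward strand of chromosome 8, namely Defb14 (ENSMUSG00000046354) at chr8:19194357-19195212, Defb4 (ENSMUSG00000059230) at chr8:19198706-19201545, Defb6 (ENSMUSG00000050756) at chr8:19225478-19228209 and Defb3 (ENSMUSG00000039775) at chr8:19293360-19295291. Defb1 (ENSMUSG00000044748) lies 2.48 Mb further on, at chr8:21776599-21795185 on the same strand. Lcn2 (ENSMUSG00000026822) is at chr2:32384633-32388252 and Slpi (ENSMUSG00000017002) at chr2:164354070-164389095, both on the reverse strand. Camp (ENSMUSG00000038357) is at chr9:109847379-109849617 on the reverse strand and Ltf (ENSMUSG00000032496) at chr9:111019271-111042767 on the forward strand. The transcripts of the beta-defensins are alike, up to 82.4% identical between Defb4 and Defb6 over their best alignment of 324 columns. The longest run that a member shares exactly with any other beta-defensin is 72 bases, between Defb4 and Defb8, which is shorter than a read of 100 bases. Defb8 had no count in any library, but how reads that fit several genes were treated is not given in the sources used here, so the low counts of Defb3 and Defb4 are uncertain in that respect.

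The sequences before the start sites of Defb6 and Defb3 are shown because the pair are near neighbours of like sequence whose levels and fitted papain changes differ below. That of Slpi is shown because Slpi rose with papain on both diets. Each is the 250 bases before the RefSeq start on GRCm38.p6, and 6 of the 9 members had such an entry. Defb1, Defb4 and Defb14 had none. Capitals mark matches on either strand, overlaps included, to the letters TTNNGNAA (C/EBP type), GGGNNNNNCC (NF-kappaB type), TATAA (TATA box type), TGANTCA (AP-1 type) and GCGTG (the core of the AhR response element). The windows are chr8:19225228-19225477 (forward strand) for Defb6, chr8:19293111-19293360 (forward strand) for Defb3 and chr2:164356508-164356757 (reverse strand) for Slpi, the last within the span that GENCODE gives the gene but in none of its exons.
Defb6: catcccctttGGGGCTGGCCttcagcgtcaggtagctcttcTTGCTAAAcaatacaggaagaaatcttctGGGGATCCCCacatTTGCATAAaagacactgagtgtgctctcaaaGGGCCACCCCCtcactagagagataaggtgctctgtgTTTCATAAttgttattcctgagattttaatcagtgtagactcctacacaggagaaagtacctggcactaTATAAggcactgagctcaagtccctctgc
Defb3: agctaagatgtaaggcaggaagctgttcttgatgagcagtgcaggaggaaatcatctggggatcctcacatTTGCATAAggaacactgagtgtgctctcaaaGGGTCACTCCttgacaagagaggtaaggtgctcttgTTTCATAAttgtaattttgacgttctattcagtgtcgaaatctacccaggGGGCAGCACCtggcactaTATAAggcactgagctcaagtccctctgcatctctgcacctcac
Slpi: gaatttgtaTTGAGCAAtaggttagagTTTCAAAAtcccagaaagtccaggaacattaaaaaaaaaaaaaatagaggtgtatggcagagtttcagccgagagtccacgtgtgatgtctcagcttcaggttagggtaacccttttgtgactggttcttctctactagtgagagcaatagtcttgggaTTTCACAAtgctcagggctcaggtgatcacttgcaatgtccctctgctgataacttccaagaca

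The windows of Defb6 and Defb3 were identical at 196 of 265 aligned columns (74.0%) and shared an exact run of 40 bases that holds the TATAA letters, 29 bases before the start of Defb6 and 44 before that of Defb3. The other 14 pairs among the 6 windows were 45.9% to 52.4% identical. Both beta-defensin windows held TTATGCAA and TTATGAAA on the reverse strand, at 166 and 98 bases before the start in Defb6 and in the same order in Defb3. Defb6 had 4 matches to the NF-kappaB letters and Defb3 had 2. The C/EBP letters were matched in 5 of the 6 windows, against 36.8% of all 32851 windows of this length, and the NF-kappaB letters in 4 of 6, against 45.8%. The TATAA letters were in 2 of 6 (22.8% of all windows), while the AP-1 letters (6.75%) and the AhR core (28.2%) were in 0 of 6. Since the windows of Defb6 and Defb3 are alike, their matches are not independent of each other in these counts. These are matches of letters within 250 bases and say nothing of binding.

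Library totals ranged from 22500821 to 51844375 counts (median 37177795). Levels are in CPM (a gene's counts relative to its library's total, after TMM normalization), and 3 counts over the 4 libraries of a group, taken as the detection floor, came to 0.0196 to 0.0208 CPM. Markers of basal keratinocytes summed to 20715 to 36310 CPM and those of suprabasal keratinocytes to 18540 to 43681 CPM. Of these, 0 of 6 and 0 of 8 were called in any pairwise comparison, against 1.59% to 8.98% of all genes in either direction. Some were lower at an adjusted p below 0.01 in edgeR by less than a call required. These were Krt5 with papain on the I3C diet (log2 -0.48) and Dsg1a with papain on the AhR-poor diet (-0.82). Between diets with papain, Itga6 (-0.47) and Trp63 (-0.39) were lower on the AhR-poor diet. Markers of dermal fibroblasts summed to 12.0 to 25.9 CPM on the I3C diet and to 114.7 to 714 CPM on the AhR-poor diet. In bulk RNA, fewer cells of a type and less RNA per cell cannot be told apart.

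With vehicle, Defb6 was the leading member per length. Its mean was 166 CPM per kb of exonic sequence on the I3C diet and 254 on the AhR-poor diet, ahead of Defb1 at 17.0 and 18.7 and Slpi at 4.07 and 5.82 CPM per kb. The libraries of these 3 genes did not overlap on either diet. Lcn2 (0.575 and 0.971 CPM per kb) and Defb14 (0.513 and 0.668) followed and overlapped with each other. Defb3, Defb4, Camp and Ltf were at or below 0.255 CPM per kb in both vehicle groups, and on the I3C diet Defb4, Camp and Ltf had 0 counts in 4 of 4 libraries. With papain, the order on the I3C diet was Defb6 (124 CPM per kb), Slpi (92.9), Defb1 (77.7), Defb14 (35.0) and Lcn2 (34.2), and each of these overlapped with its neighbours among them. On the AhR-poor diet Defb6 (224 CPM per kb) stood clear of Slpi (79.6) and Defb1 (65.5), which overlapped with each other, and Lcn2 (39.0) overlapped with Defb14 (25.5).

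**Figure D1:**
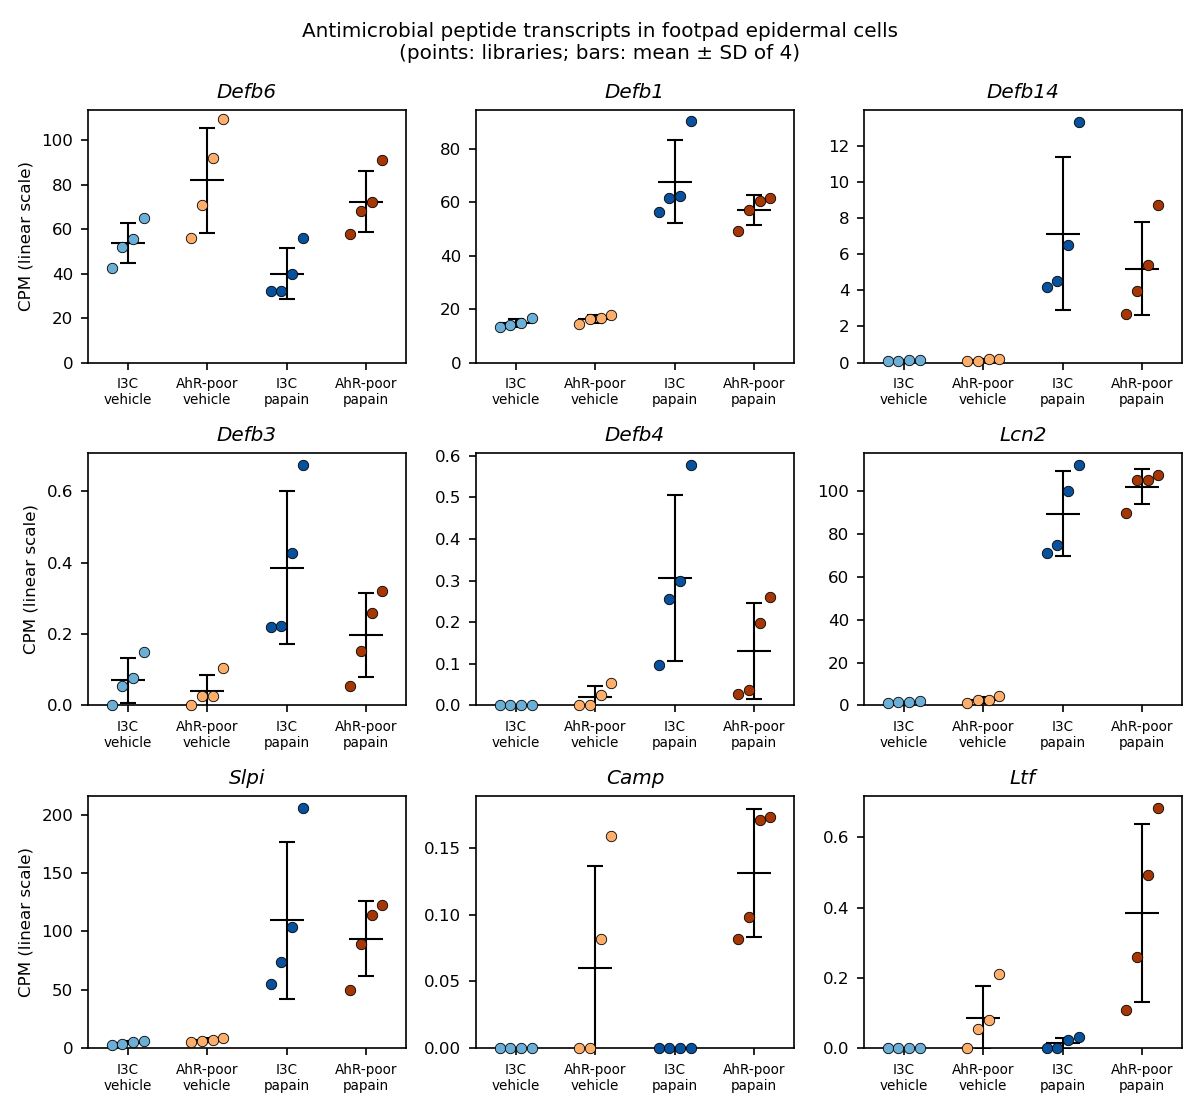
CPM of each member (vertical axis, linear, 1 scale per gene) in the 4 groups (horizontal axis), with 1 point per library and bars for the mean ± SD of 4, cut at 0. Papain libraries of Defb1, Defb14, Lcn2 and Slpi sat above all vehicle libraries of the same diet, Defb6 did not show this, and Camp was at 0 in all 8 I3C libraries.

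Papain raised 4 members on the AhR-poor diet (Defb1, Defb14, Lcn2 and Slpi) and 5 on the I3C diet (these and Defb4). A call required an adjusted p under 0.01 (Benjamini-Hochberg, over 22155 genes, in edgeR's quasi-likelihood test) and a log2 change beyond 1 in either direction. On this rule 6.04% of all genes tested were higher with papain on the AhR-poor diet and 3.69% on the I3C diet. Of the 9 members 0 were called lower on either diet, against 2.42% and 5.29% of all genes, and 0 were lower at an unadjusted p below 0.05 in edgeR or called lower by DESeq2. All papain libraries lay above all vehicle libraries for 4 members on the AhR-poor diet (17.0% of all genes) and for 6 on the I3C diet (16.2%). The median log2 fold change of the members was 2.19 and 2.39, against -0.00 and -0.04 over all genes tested.

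Lcn2, which binds the siderophores that bacteria use to take up iron, rose steeply on both diets. With vehicle it was at 1.32, 1.84, 1.496 and 1.38 CPM in the I3C libraries T108 to T111, and at 4.25, 2.44, 2.35 and 1.15 CPM in the AhR-poor libraries T100 to T103. With papain it was at 71.2, 75.1, 112.3 and 100.04 CPM in the I3C libraries T106, T113, T114 and T115, and at 105.6, 107.6, 105.5 and 90.1 CPM in the AhR-poor libraries T104, T105, T107 and T112. Every papain library exceeded every vehicle library many times over, and the diets overlapped. The rise was 5.88 ± 0.29 (SE) on the log2 scale on the I3C diet (adjusted p = 2.89e-09) and 5.33 ± 0.28 on the AhR-poor diet (adjusted p = 9.17e-09).

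Slpi, an inhibitor of neutrophil elastase and cathepsin G, rose in all papain libraries but varied more among them. The I3C vehicle libraries T108 to T111 were at 6.35, 3.24, 3.999 and 5.61 CPM, and the AhR-poor vehicle libraries T100 to T103 at 8.83, 5.22, 7.44 and 6.01 CPM. With papain, the I3C libraries T106, T113, T114 and T115 were at 74.3, 206, 103.6 and 55.1 CPM, and the AhR-poor libraries T104, T105, T107 and T112 at 114.2, 89.5, 122 and 49.96 CPM. T113 was the highest of all 16 libraries and T112 the lowest of the 8 papain libraries. The fitted log2 rise was 4.52 ± 0.45 on the I3C diet (adjusted p = 3.67e-06) and 3.77 ± 0.43 on the AhR-poor diet (adjusted p = 1.94e-05).

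Defb14, the mouse counterpart of the inducible human beta-defensin 3, was close to the detection floor with vehicle. It had 3 to 5 counts in each I3C vehicle library (0.0765 to 0.136 CPM) and 3 to 8 in each AhR-poor vehicle library (0.0805 to 0.198 CPM). With papain, the I3C libraries T106, T113, T114 and T115 were at 4.19, 13.3, 6.51 and 4.53 CPM, and the AhR-poor libraries T104, T105, T107 and T112 at 3.99, 5.41, 8.70 and 2.69 CPM. The papain libraries were thus at no less than 2.69 CPM, and T113 was again the highest. The log2 rise was 6.05 ± 0.53 on the I3C diet (adjusted p = 1.77e-07) and 5.19 ± 0.51 on the AhR-poor diet (adjusted p = 1.11e-06).

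Defb1, the beta-defensin that epithelia make without stimulus, also rose, from a higher level and by less. With vehicle it was at 14.2, 14.9, 13.4 and 16.8 CPM in T108 to T111 on the I3C diet and at 17.9, 16.2, 16.5 and 14.5 CPM in T100 to T103 on the AhR-poor diet. With papain it was at 56.4, 90.6, 61.8 and 62.3 CPM in the I3C libraries T106, T113, T114 and T115 and at 60.3, 49.2, 57.1 and 61.7 CPM in the AhR-poor libraries T104, T105, T107 and T112. The vehicle libraries of the 2 diets overlapped, as did the papain libraries, and the papain and vehicle libraries lay far apart. The log2 rise was 2.19 ± 0.13 on the I3C diet (adjusted p = 1.00e-09) and 1.81 ± 0.13 on the AhR-poor diet (adjusted p = 1.74e-08).

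Defb3 and Defb4, both known as beta-defensins that microbes and inflammation induce, stayed below 1 CPM in every library. Defb4 had 0 counts in the 4 I3C vehicle libraries and 4, 18, 9 and 12 counts in the I3C papain libraries T106, T113, T114 and T115, at least 14.0-fold higher against a floor of 3 counts over the vehicle group (adjusted p = 0.000800). On the AhR-poor diet it had 2, 0, 1 and 0 counts with vehicle and 8, 2, 6 and 1 with papain (T104, T105, T107 and T112), a ratio of 5.63 with a counting interval of 1.63 to 30.0 that was not called (adjusted p = 0.0838). Without T100, the vehicle library with 2 counts, that ratio was 12.8 with an interval of 2.01 to 536 (adjusted p = 0.0553, in a range of 0.0512 to 0.220 over the alternatives). Thus Defb4 was seen in all 8 papain libraries and in 2 of 8 vehicle libraries. Defb3 had 0, 3, 2 and 5 counts in T108 to T111 and 9, 21, 15 and 9 in T106, T113, T114 and T115 on the I3C diet, where the groups did not overlap and the adjusted p of 0.0101 for a log2 fold change of 2.39 ± 0.69 lay just past the threshold. That p ranged from 0.00524 with DESeq2 to 0.0451 over the alternatives, 9 of which called the gene. On the AhR-poor diet Defb3 had 1, 4, 0 and 1 counts with vehicle and 13, 8, 6 and 2 with papain, and the groups overlapped (log2 2.19 ± 0.80, adjusted p = 0.0416). Without T101, the vehicle library with 4 counts, that log2 value was 3.22 (adjusted p = 0.0188, in a range of 0.0188 to 0.140 over the alternatives), and without T111 the value on the I3C diet was 2.99.

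Defb6, a beta-defensin known from epithelia and skeletal muscle, was the exception among the abundant members. The I3C vehicle libraries T108 to T111 were at 51.9, 64.8, 42.7 and 55.7 CPM and the I3C papain libraries T106, T113, T114 and T115 at 56.1, 32.0, 39.6 and 32.0 CPM. The AhR-poor vehicle libraries T100 to T103 were at 109.4, 92.0, 70.7 and 55.8 CPM and the AhR-poor papain libraries T104, T105, T107 and T112 at 91.2, 72.0, 58.0 and 68.3 CPM. Vehicle and papain libraries overlapped on both diets. The log2 difference was -0.43 (95% interval -0.91 to 0.06, adjusted p = 0.165) on the I3C diet and -0.18 (-0.66 to 0.30, adjusted p = 0.595) on the AhR-poor diet, so a rise of the size seen in Defb1 lay outside both intervals. Its neighbour Defb3, with the similar sequence before the start shown above, had fitted log2 values above 2 on both diets from far lower levels.

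**Figure D2:**
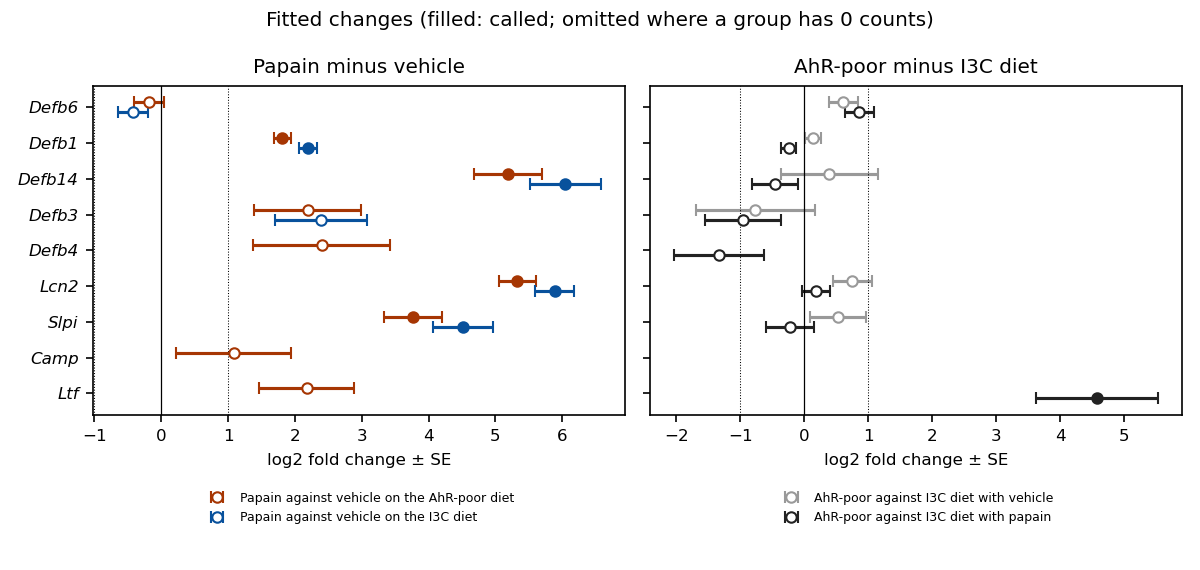
Log2 fold change ± SE (horizontal axis) of each member (vertical axis) for papain minus vehicle on each diet (left) and for the AhR-poor minus the I3C diet with each injection (right), with filled points for called genes and none where a group had 0 counts. Papain values of Defb1, Defb14, Lcn2 and Slpi are filled on both diets, and on the right only Ltf with papain is filled.

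The make-up of the beta-defensin transcripts therefore differed with papain. Of the summed CPM of the 5 beta-defensins, Defb6 held 78.4, 81.1, 75.9 and 76.6% in T108 to T111 and 85.8, 84.8, 80.8 and 79.3% in T100 to T103. With papain it held 48.0, 23.3, 36.5 and 32.2% in the I3C libraries T106, T113, T114 and T115 and 58.4, 56.8, 46.7 and 51.5% in the AhR-poor libraries T104, T105, T107 and T112. Every papain library had a smaller Defb6 share than every vehicle library. The quotient of Defb6 to Defb1 CPM was 3.20 to 4.35 with vehicle and 0.353 to 0.996 with papain on the I3C diet, and 3.86 to 6.10 with vehicle and 1.02 to 1.51 with papain on the AhR-poor diet. With papain it was thus higher in all AhR-poor than in all I3C libraries, in 1 of which (T106) it reached 0.996. These shares and quotients are not scaled for length, and Defb1 has 872 exonic bases against 323 for Defb6. Per kb, the mean of Defb6 remained above that of Defb1 with papain. It was 124 against 77.7 CPM per kb on the I3C diet and 224 against 65.5 on the AhR-poor diet.

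**Figure D3:**
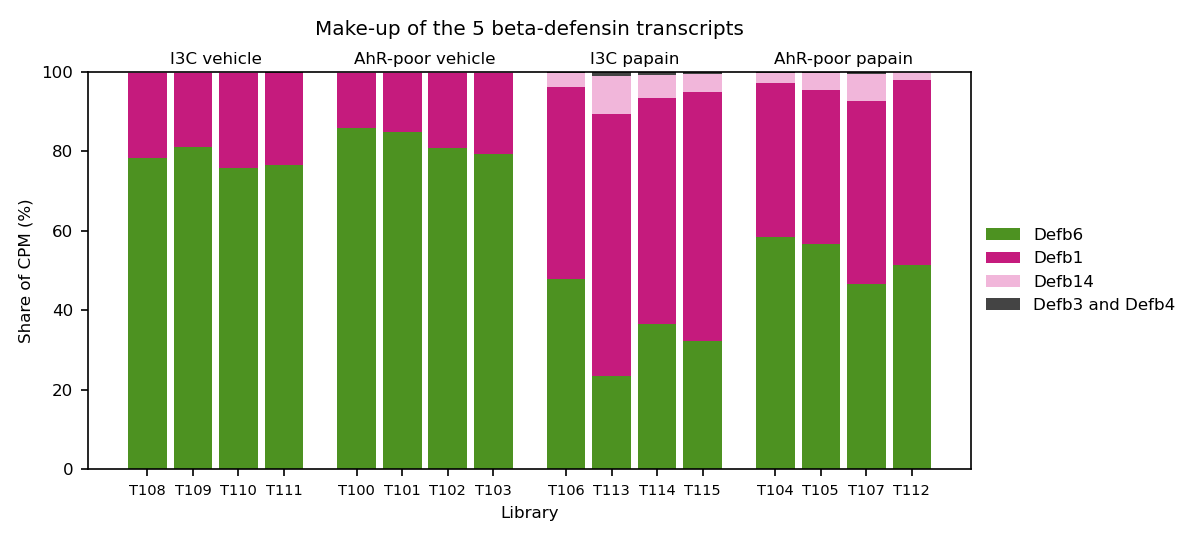
Share of the summed CPM of the 5 beta-defensins (vertical axis, %, not scaled for gene length) in each of the 16 libraries (horizontal axis), stacked by gene. Defb6 takes 75.9% or more in the 8 vehicle libraries and 58.4% or less in the 8 papain libraries, where Defb1 and Defb14 fill most of the rest.

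With vehicle, no member was called between the diets. The 9 members gave 0 calls, against 1.59% of all genes. In edgeR 4 had an unadjusted p below 0.05, all higher on the AhR-poor diet (Defb6, Lcn2, Camp and Ltf), while DESeq2 called 0. Over all genes, edgeR called 352 higher and 0 lower, against 193 and 1 without T110, and DESeq2 called 595 and 6. For 0 members did all AhR-poor libraries lie above or below all I3C libraries, against 6.45% of all genes above and 1.67% below. Defb6 had the log2 difference 0.61 ± 0.22 (adjusted p = 0.231), with 3 of 4 AhR-poor libraries above the highest of the I3C libraries. Camp had 3, 6, 0 and 0 counts and Ltf 3, 8, 0 and 2 counts in T100 to T103, where the I3C diet gave 0 counts of either gene, at least 2.84-fold (adjusted p = 0.258) and 4.10-fold (adjusted p = 0.152) higher against the floor over the group. T101 held 6 of the 9 counts of Camp and 8 of the 13 of Ltf. Without it Camp had 3 counts, which is the floor and allows no fold, and Ltf was at least 2.10-fold higher (adjusted p = 0.489 and 0.353, in ranges of 0.167 to 0.489 and 0.0558 to 0.353 over the alternatives). The members' median log2 difference was 0.61, or 0.52 with genes at 0 in a group set to their bound, against -0.01 over all genes.

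With papain, Ltf was the 1 member called between the diets. Of all genes tested, 7.15% passed the call upward in the AhR-poor group and 0.0993% downward. Of the 9 members 1 passed upward and 0 downward (0 at an unadjusted p below 0.05 in edgeR, 0 by DESeq2). Ltf had 20, 36, 6 and 4 counts in the AhR-poor libraries T104, T105, T107 and T112 and 1, 1, 0 and 0 in the I3C libraries T106, T113, T114 and T115. The groups did not overlap, and the ratio of counts, scaled for depth, was 31.8 with a counting interval of 8.45 to 268 (adjusted p = 0.00275). Ltf lost the call when T105, T114 or T115 was left out, with adjusted p of 0.0106, 0.0110 and 0.0124, while the log2 difference was 4.10, 4.25 and 4.19 against 4.57 with all libraries, and the adjusted p was 0.00102 to 0.0124 over all alternatives. The ratio of counts was 22.0 without T105 and 50.1 without T113, the lowest and highest values with 1 library left out. The difference thus rests on 66 and 2 counts in all.

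Camp and Defb6 were the other members whose AhR-poor papain libraries all exceeded the I3C papain libraries, which makes 3 of 9, against 12.5% of all genes above and, for 0 members, 12.3% below. Camp had 4, 9, 4 and 3 counts in T104, T105, T107 and T112 and 0 in the 4 I3C papain libraries, at least 6.42-fold higher against the floor over the group, with an adjusted p of 0.0199 (0.00816 to 0.0457 over the alternatives). Defb6 was at a mean of 72.4 ± 13.8 CPM (SD, n = 4) on the AhR-poor and 39.9 ± 11.4 CPM on the I3C diet, a log2 difference of 0.86 ± 0.23 below the minimum for a call (adjusted p = 0.0147). The lowest AhR-poor library, T107, was at 58.0 CPM and the highest I3C library, T106, at 56.1 CPM. Without T106 the difference was 1.08 and was called (adjusted p = 0.00237). The 4 members raised by papain on both diets overlapped between diets, with log2 differences of -0.25 ± 0.12 for Defb1, -0.46 ± 0.36 for Defb14, 0.19 ± 0.22 for Lcn2 and -0.22 ± 0.38 for Slpi. Without T113, those of Defb14 and Slpi were 0.038 and 0.29. Defb4 and Defb3 overlapped between diets as well, and had the most negative values, at a log2 difference of -1.33 ± 0.70 for Defb4 (17 counts on the AhR-poor and 43 on the I3C diet, adjusted p = 0.213, 0.112 to 0.523 over the alternatives) and -0.97 ± 0.59 for Defb3 (29 and 54 counts, adjusted p = 0.287, 0.193 to 0.627). Without T113, in which both had their highest counts, they were -0.84 and -0.56. The median over the 9 members was -0.22, against 0.01 over all genes.

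The papain response of no member was called different between the diets, where 0.0181% of all genes were. That share depended on the fit. Of 22155 genes, edgeR called 4 higher and 0 lower, and DESeq2 called 200 higher and 5 lower. Without T112, edgeR called 95 higher and 0 lower. Defb1 was the 1 member with an unadjusted p below 0.05 in edgeR, with a response smaller on the AhR-poor diet by a log2 difference of -0.38 (95% interval -0.76 to -0.01, adjusted p = 0.355), and DESeq2 called 0. The intervals were -1.36 to 0.25 for Lcn2, -1.99 to 0.50 for Slpi, -2.64 to 0.94 for Defb14 and -0.43 to 0.93 for Defb6, so log2 differences of 1 in a response were within the intervals of 3 of these 4 genes. Camp, Ltf and Defb4 had a group with 0 counts and were given no such value.

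Markers of other cells moved with the diet and papain, and their part in the members' values was not tested. The 16 neutrophil markers summed to 57.3 to 81.3 CPM with vehicle and 70.9 to 114.2 CPM with papain on the I3C diet, and to 90.4 to 108.9 CPM with vehicle and 227 to 1440 CPM with papain on the AhR-poor diet. Against vehicle, 15 of the 16 were called higher with papain on the AhR-poor diet (6.04% of all genes). On the I3C diet 4 were called higher (3.69% of all genes) and 1 lower (5.29%). Between diets with papain, all but S100a8, Cxcr2, Mmp9 and Ly6g were called higher on the AhR-poor diet (7.15% of all genes). Ly6g, which defines neutrophils in mice, had counts only in the AhR-poor papain libraries. Markers that also had counts on the I3C diet without Ly6g carried most of the sum there, such as Il1r2 at a mean of 66.7 CPM with vehicle and Cxcr2 at 24.2 CPM with papain. T112, the AhR-poor papain library with the lowest sum (227 CPM), was also the lowest of the 4 for Ltf, Camp, Lcn2, Slpi, Defb3, Defb4 and Defb14, but the highest for Defb1 (61.7 CPM) and not the lowest for Defb6, and T105, with the highest (1440 CPM), was the highest for Ltf and Lcn2. Lcn2 was at 71.2 to 112.3 CPM in the I3C papain libraries, in which Ly6g was at 0 and Csf3r, the receptor of a neutrophil growth factor, had a mean of 0.739 CPM against 57.8 CPM in the AhR-poor papain group. Monocyte and macrophage markers summed to 18.8 to 28.1 CPM with vehicle and 11.5 to 36.0 CPM with papain on the I3C diet, and to 50.9 to 61.2 and 87.7 to 289 CPM on the AhR-poor diet. The 6 markers of precursor granules summed to 0.0641 to 0.317 CPM with papain on the I3C diet and to 5.44 to 41.5 CPM on the AhR-poor diet. Chil3 (means of 0.0619 and 16.5 CPM) and Ngp (0 and 0.922 CPM) were called between the diets with papain. The papain libraries of Chil3 ranged from 0 to 0.219 CPM on the I3C diet and from 5.14 to 39.9 CPM on the AhR-poor diet. Chil3 thus made up most of the summed precursor granule markers with papain on the AhR-poor diet. Prtn3 differed, at means of 0.191 CPM with vehicle and 0.203 CPM with papain on that diet. On the I3C diet it was called lower with papain (0.206 and 0.0602 CPM, 5.29% of all genes), and it was not called between diets. Mpo, Elane and Ctsg were at or below 0.0496 CPM in all group means. Markers of 3 further cell types also separated by diet in all libraries of each injection. Over all genes, 1.59% were called between diets with vehicle, and 7.15% were called higher on the AhR-poor diet with papain. The 6 Langerhans cell markers summed to 237 to 420 CPM with vehicle and 297 to 570 CPM with papain on the I3C diet, and to 593 to 659 and 681 to 828 CPM on the AhR-poor diet, with 1 (Cd86) called with vehicle and 2 (Cd86 and Itgax) with papain. The 7 endothelial markers summed to 0.742 to 3.26 CPM over the I3C libraries and to 14.3 to 58.0 CPM over the AhR-poor libraries, and 7 of 7 were called with each injection. The 6 mast cell markers summed to 1.39 to 1.92 CPM with vehicle and 1.27 to 3.51 CPM with papain on the I3C diet, and to 3.02 to 7.22 and 8.13 to 22.2 CPM on the AhR-poor diet, with 1 called with vehicle and 5 with papain.

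**Figure D4:**
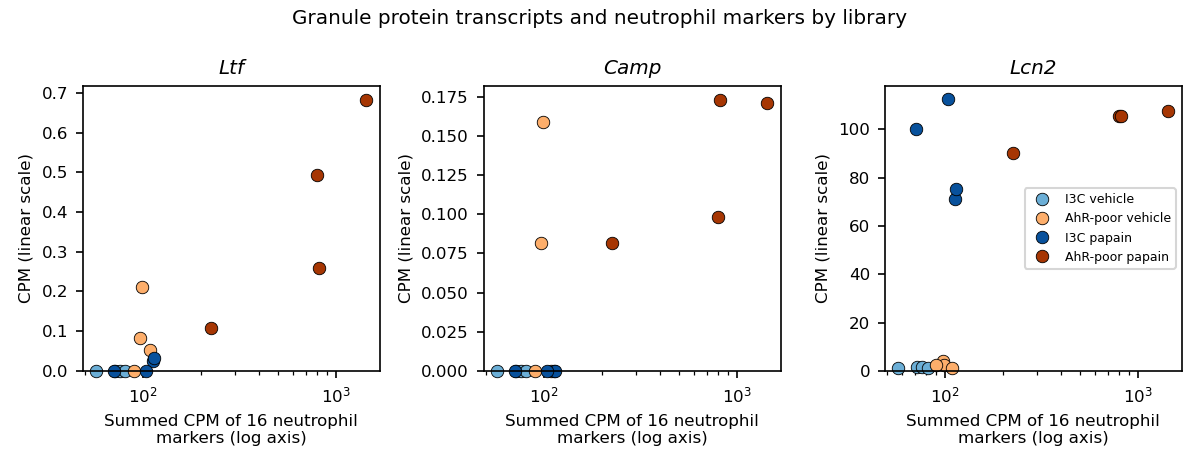
CPM of Ltf, Camp and Lcn2 (vertical axes, linear) against the summed CPM of 16 neutrophil markers (horizontal axis, log scale), with 1 point per library coloured by group. The highest Ltf values are in the AhR-poor papain libraries with the most marker RNA, while Lcn2 reached 71.2 to 112.3 CPM in I3C papain libraries whose marker sum was 114.2 CPM or less.

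The summed markers of eccrine sweat glands, which are dense in the footpad, are given beside Defb6, and their part in its level was not tested. They summed to 219 to 282 CPM with vehicle and 134 to 192 CPM with papain on the I3C diet, and to 292 to 358 CPM and 176 to 292 CPM on the AhR-poor diet. Slc12a2, an ion carrier, and Krt77, a duct keratin, carried most of this sum and differed in pattern. In the I3C vehicle, AhR-poor vehicle, I3C papain and AhR-poor papain groups, Krt77 had means of 49.5, 147, 27.2 and 117 CPM, the order of the Defb6 means, and Slc12a2 had means of 175, 165, 111.97 and 105.9 CPM, which is another order. The median log2 difference of the 9 tested markers between diets with papain was 0.054. Of the 9 markers tested, 1 (Aqp5, a water channel) was called lower with papain on the I3C diet (5.29% of all genes). Between diets with papain 2 (Krt77 and Chrm3) were called, both higher without I3C (7.15% of all genes).

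The other secreted antimicrobial proteins made up a list of 25 tested genes, of which 11 rose with papain on the AhR-poor diet and 8 on the I3C diet, where 2 fell. Over all genes, 6.04% rose on the AhR-poor diet, and 3.69% rose and 5.29% fell on the I3C diet. The AhR-poor diet gave higher levels than the I3C diet for 2 of them with vehicle (Lyz1 and Lyz2), against 1.59% of all genes called in either direction, and for 7 with papain (S100a9, Lyz2, Chil3, Lyz1, Pglyrp1, Retnla and Ngp), against 7.15% of all genes called higher. Of these 7, 4 are themselves part of the marker sums above, S100a9 of the neutrophil, Chil3 and Ngp of the precursor granule and Lyz2 of the monocyte and macrophage markers, and the part of such cells in the difference was not tested. The median log2 values of the list in these 4 comparisons were 1.31, 0.79, 0.46 and 0.25. S100a9, a subunit of the calprotectin that binds zinc and manganese, rose from a mean of 0.330 to 16.9 CPM on the I3C diet. On the AhR-poor diet it rose from 1.504 to 161 CPM. On the I3C diet Ly6g was at 0, while the neutrophil markers S100a8 (0.189 to 16.6 CPM) and Cxcr2 (0.705 to 24.2 CPM) also rose. Mmp9 was called higher there too, and Il1r2 lower. Lyz2, the lysozyme of myeloid cells, rose with papain on the AhR-poor diet from 5.63 to 74.8 CPM, and was at 0.260 and 0.717 CPM on the I3C diet. Ccl20, a chemokine with antimicrobial activity that shares the receptor Ccr6 with beta-defensins, rose from 13.2 to 29.2 CPM on the I3C diet and from 15.98 to 39.7 CPM on the AhR-poor diet. Cxcl14, an antimicrobial chemokine of resting skin, fell on the I3C diet from 100.5 to 29.8 CPM and was at 94.6 and 67.6 CPM on the AhR-poor diet. Pglyrp3, a peptidoglycan recognition protein that was chosen after its values were seen, rose from 2.85 to 24.9 CPM and from 3.93 to 19.9 CPM. Of the 38 other beta-defensin genes in the table, 6 had any count, 3 were tested (Defb2, Defb5 and Defb15), and 0 were called in any comparison.

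Among 28 cytokines, receptors and regulators known to drive such genes, 6 rose with papain on the AhR-poor diet and 3 on the I3C diet, 0 fell, and between diets 0 were called with vehicle and 5 with papain, all higher without I3C. Of all genes, papain raised 6.04% and lowered 2.42% without I3C, and raised 3.69% and lowered 5.29% with I3C. Between diets, 1.59% were called with vehicle in either direction and 7.15% were higher without I3C after papain. Il1b, the interleukin-1 that induces Lcn2 and beta-defensins in keratinocytes, rose from 0.378 to 6.15 CPM on the I3C diet. On the AhR-poor diet it rose from 2.57 to 233 CPM. The papain libraries of Il1b ranged from 2.01 to 15.0 CPM on the I3C diet and from 59.7 to 431 CPM on the AhR-poor diet. Tnf rose from 6.98 to 16.5 CPM and from 12.2 to 37.0 CPM, and Osmr, the oncostatin M receptor, from 42.9 to 99.1 CPM and from 40.3 to 81.0 CPM. Tlr2, a receptor of bacterial lipoproteins, rose on the AhR-poor diet from 5.95 to 40.1 CPM. Some genes missed the call on the size of the change alone. Stat3 was higher with papain by a log2 change of 0.9997 on the I3C diet (adjusted p = 8.30e-08 in edgeR). On the AhR-poor diet its change was 0.89 (adjusted p = 6.74e-07). Cebpb was lower with papain on the I3C diet (log2 -0.47, adjusted p = 0.00204). The 5 genes called between diets with papain were Il1b, Tnf, Tlr2, Il6 and Osm. Il1b and Tlr2 were at 6.15 and 6.18 CPM on the I3C diet and at 233 and 40.1 CPM on the AhR-poor diet, where the neutrophil and monocyte marker sums were higher as well. The part of these genes in the members' levels was not tested.

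Receptors of these peptides and the proteases that process them made up a list of 14 tested genes, of which 4 rose with papain on the AhR-poor diet (6.04% of all genes) and 1 on the I3C diet (3.69%), where 2 fell (5.29%). Between diets 0 were called with vehicle (1.59% of all genes) and 3 with papain, all higher without I3C (7.15%). Slc22a17, a receptor of Lcn2, fell on the I3C diet from 26.2 to 11.6 CPM and was lower with papain on the AhR-poor diet too, at 28.4 and 16.1 CPM, where it missed the call on the size of the change alone (log2 -0.81, adjusted p = 5.55e-06). Prss27, a serine protease, rose from 0.753 to 4.45 CPM and from 1.51 to 4.71 CPM. The 3 genes called between diets were Ccr2, Fpr1 and Fpr2, receptors on leukocytes, at 9.08, 7.30 and 6.90 CPM on the AhR-poor diet and 0.263, 0.115 and 0.0952 CPM on the I3C diet with papain. Ccr2 is also among the monocyte and macrophage markers and Fpr1 among the neutrophil markers.

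The genes whose log2 CPM followed a member most closely over the 16 libraries were looked up among 13025 genes with at least 1 CPM, as a description in which the libraries share groups. For Defb6 these were Lbh (Pearson r = 0.96), a regulator of transcription, Cyp27a1 (0.95), a sterol hydroxylase, and Oxtr (0.94), the oxytocin receptor, and with the group means removed r was 0.91, 0.92 and 0.84. Lbh, for instance, was at 8.42 and 13.5 CPM with vehicle on the I3C and AhR-poor diets and at 5.10 and 11.4 CPM with papain, the order that Defb6 had. For Defb1 they were Rab31, Sh2d5 and Krt6a (0.99 each), the last a keratin of injured epidermis at 116 CPM with vehicle and 2958 with papain on the I3C diet. Rab31 also led for Defb14 (0.99), with Creld2 and Sdf2l1 of the endoplasmic reticulum (both 0.99). Mvp, Psmb10 and Psma3, the latter pair proteasome subunits, led for Lcn2 (0.99 each), and Nus1, Sprr1a and Anxa3 for Slpi (0.98 each). With the group means removed, r for these 4 induced members fell to between 0.60 and 0.80. Among the members themselves, r between any 2 of Defb1, Defb14, Lcn2 and Slpi was 0.96 to 0.98, and that of Defb6 with each of them was -0.22 to -0.36. With the group means removed, r ranged from 0.028 (Defb14 with Lcn2) to 0.65 (Defb14 with Slpi) among the 4, and for Defb6 from -0.37 with Defb14 to 0.50 with Lcn2.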

How the data were processed

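Per the labels and the methods, total RNA of epidermal cells was made into TruSeq Stranded mRNA libraries, and the submitters' processing notes name FastQC, STAR, DESeq2 and the build mm10. The counting tool, annotation release and strand setting are not given in the sources used here. The authors deposited raw counts of reads per gene and library, without normalization. Of 50600 Ensembl identifiers, GENCODE M21 gave a symbol for 50376 and none for 224, and 21610 had no count. Replicates of a group differed by more than counting error (lowest chi-square per degree of freedom 9.43).

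The 22155 genes with 10 counts or more over all libraries were tested. A mean per group was fitted to all 16 libraries with TMM factors (0.937 to 1.07) and the robust quasi-likelihood F test of edgeR 4.0.16 under R 4.3.3, after a test on simulated data. Calls required an adjusted p (Benjamini-Hochberg) under 0.01 and a log2 change beyond 1 in either direction. CPM per kb used the exonic bases of GENCODE M21. A fold against a group at 0 was computed against 3 counts over that group. Counting intervals are exact conditional binomial intervals at 95%, and like the floor they cover counting error only. Fold changes are those of the model. Each SE is the size of the log2 fold change divided by the square root of the test's F value. It is approximate for genes with few counts, and the 95% intervals of log2 values rest on it. Other errors are SD.

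All 9 members are named. From each other list, the rule was to name up to 4 genes with the highest mean CPM among those called in a pairwise comparison. Markers a result turned on were named as well, as were the genes of some lists called between diets. Stat3, Cebpb and the keratinocyte markers were named after their values were seen. Not every gene that the rule picked is named, for instance the neutrophil markers Hdc and Clec4e. For likeness, the 3 genes with the highest Pearson r were named. Members and lists were chosen with earlier results of these data known. As alternatives, normalization used RLE factors or the library size alone, the filter was filterByExpr or 1 count, and DESeq2 1.42.0 (Wald test) replaced edgeR. Others fitted just the 8 libraries of a comparison, raised the adjusted p to 0.05, dropped the minimum fold, or left out each library in turn. Each library is a separate mouse, and the libraries carry no pairing. The methods name 3 sequencing units, and the labels do not say which library was on which unit.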

Additional observations from a re-analysis of the deposited data

Results flagged for a closer look

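Lcn2 in the AhR-poor papain group had 1 library apart from the other 3. T112 was at 90.1 CPM, and the next lowest library of the group was at 105.5 CPM. The gap was 0.882 of the whole range of the group, above Dixon's 95% critical value of 0.829 for 4 samples. Of the 36 sets of 4 libraries (9 members in 4 groups), 32 had any spread and were examined, and chance flags about 1 in 20. T112 also had the lowest neutrophil marker sum of its group (227 CPM), and whether this bears on its Lcn2 level was not tested.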

How the results depend on the processing

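No paired analysis was possible because the groups share no replicate numbers. The counts of members called with papain stayed within 1.5 times of 4 on the AhR-poor diet and 5 on the I3C diet under all 24 alternatives, and stayed at 0 between diets with vehicle and, under 23, for the interaction. Between diets with papain the count was 1, and was 0 with filterByExpr, which leaves out Ltf and Camp as too low, 2 with only the 8 libraries compared and 2 at an adjusted p below 0.05 (Camp and Ltf in both), and 0 to 2 without 1 library. It was 0 without T105, T114 or T115, and 2 without T106 (Defb6 and Ltf); the cause was not tested. Of 959 values of single members under the alternatives, 934 kept direction and side of the threshold, 16 gained the call, 3 lost it and 6 changed sign. Leaving out 1 library moved the diet difference with papain from -0.82 to 0.038 for Defb14 and from -0.44 to 0.29 for Slpi, with the sign turning without T113 in both. It moved the Defb3 interaction from -0.79 to 0.83, positive without T112 (0.11), T113 (0.22), T101 (0.83) or T108 (0.19). Ltf with papain on the AhR-poor diet (log2 2.18, adjusted p = 0.0261, 0.00978 to 0.11 over the alternatives) gained the call without T101 (log2 3.09) or T112 (2.48). Library size alone shifted the median log2 difference of all genes between diets with papain from 0.01 to 0.11. Depth limits Camp, Ltf, Defb3 and Defb4, which had 0 to 36 counts in a library.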
